A study of Mus musculus with 14 samples.

Results

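The NFAT (nuclear factor of activated T cells) family comprises 5 transcription factor genes, Nfatc1, Nfatc2, Nfatc3, Nfatc4 and Nfat5, which were examined in myeloid-biased and lymphoid-biased multipotent progenitors of young and old mice. The members were found by gene symbol in the annotation of the array, and each of the 5 was read by 1 probe set among 19155 measured genes. The family was taken up with results of these arrays already known, so the position of a member among all genes carries no independent weight. The fits across all genes are given for each member, but none of them is a fresh test of the family.

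NFATc factors are held in the cytoplasm by phosphorylation. When calcium enters the cell through store-operated channels, calmodulin activates the phosphatase calcineurin, which removes these phosphates and lets the factors move into the nucleus, and kinases then send them back out. In the nucleus they bind short GGAAA elements, often beside AP-1 factors of the Fos and Jun families, and they are best known for driving cytokine genes in activated T cells. Nfat5 is the distant member of the family: it lacks the calcineurin-binding region and is known for driving genes that protect cells from osmotic stress. Because NFATc activity is set by phosphorylation and location, the level of a transcript does not measure it.

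The arrays were Affymetrix Mouse Gene ST 1.0 arrays of cells sorted from the bone marrow of wild-type C57BL/6 mice, with no transgene, deletion or treatment in any group. MPP3, the myeloid-biased population, was gated, by the deposited design, as negative for lineage markers, Flk2 and CD150 and positive for c-Kit, Sca-1 and CD48, whereas the methods of the paper print CD150 as positive. MPP4, the lymphoid-biased population, was gated as lineage-negative, c-Kit-positive, Sca-1-positive and Flk2-positive. The young groups came from animals of 8 to 10 weeks and the old groups from animals of 24 months, and 20000 cells were sorted for each sample, which the methods describe as independent biological replicates. There were 3 young and 3 old MPP3 arrays, and 5 young and 3 old MPP4 arrays. The young arrays had also been part of an earlier series, so age and series cannot be told apart.

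Values are on a scale that depends only on rank. A normalized value is minus the natural logarithm of the fraction of ranked probe sets that reach it, so that a difference between 2 values is not a fold change. Median values per array lay between 0.662 and 0.675. Kit, the c-Kit receptor gene, lay between 2.63 and 3.10 and Cd34 between 2.63 and 3.52, whereas Slamf1, the gene of CD150, lay between 0.0864 and 0.251 on every array. Old MPP3 replicate 2 stood apart in these genes: it held the lowest Kit and Cd34 values, with Cd34 at 3.23 or more elsewhere, and its sum over 5 gate genes was 9.16 against 10.8 to 11.5 on the other MPP3 arrays. The age differences of the family in MPP3 and its differences between old populations are therefore given with and without it. Flt3, which encodes Flk2, lay between 1.42 and 2.20 on the MPP3 arrays and between 2.77 and 3.53 on the MPP4 arrays. By their dimmest probe sets the arrays were split into 2 sets. That number was fixed beforehand, and the labels give no reason for the split. One held 9 arrays, namely the 6 old ones with replicates 1 and 2 of young MPP4 and replicate 1 of young MPP3, and the second held 5 young arrays. Xist, which is transcribed in female cells, lay above 1 on 4 young arrays (replicates 1, 4 and 5 of MPP4 and replicate 1 of MPP3) and on none of the old arrays. Replicates 4 and 5 of young MPP4 also had signal for the Y-linked gene Eif2s3y, at 0.855 and 1.89.

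Nfatc3 gave the largest difference between young and old mice within the family, and its start region is shown for that reason. The RefSeq annotation of GRCm38.p6 gives 2 transcription starts for Nfatc3, 1 of the NFATc factors that calcineurin controls. The 250 bases upstream of each start are printed 5′ to 3′ on the plus strand, with matches to the NFAT core element GGAAA, read on either strand, in capitals.
Nfatc3, chr8:106058568-106058817: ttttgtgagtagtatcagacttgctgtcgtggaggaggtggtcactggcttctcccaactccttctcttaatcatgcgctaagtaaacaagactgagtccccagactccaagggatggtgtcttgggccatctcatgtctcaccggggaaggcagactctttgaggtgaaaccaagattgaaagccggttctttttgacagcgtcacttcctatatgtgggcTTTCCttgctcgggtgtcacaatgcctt
Nfatc3, chr8:106059340-106059589: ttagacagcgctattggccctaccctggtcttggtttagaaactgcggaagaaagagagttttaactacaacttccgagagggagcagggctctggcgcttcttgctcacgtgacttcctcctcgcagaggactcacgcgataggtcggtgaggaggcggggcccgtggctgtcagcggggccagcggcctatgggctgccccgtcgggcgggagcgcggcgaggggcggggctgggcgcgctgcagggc
The upstream window held 1 match, in the form TTTCC, and the downstream window held 0. Their GC contents were 49.6% and 65.2%. The element was found in 55.6% of 32851 such windows of annotated mouse genes, so a match is common at this length. Windows were listed for 3 of the other members as well: those of Nfatc2 held 1 and 3 matches, that of Nfatc4 held 3 and that of Nfat5 held 2. None of the 6 windows held the AP-1 element TGANTCA, which was found in 6.75% of all windows. A match is a description of the letters and not a binding site.

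The first comparison asked whether the transcript levels of the NFAT genes differed with age in lymphoid-biased progenitors. In young MPP4, Nfatc3 had normalized values of 2.05, 2.05, 2.07, 2.12 and 2.10 on the 5 arrays. In old MPP4, its values were 2.39, 2.33 and 2.37. Every old MPP4 array was above every young MPP4 array. The mean was 2.08 ± 0.0297 (SD, n = 5) in young and 2.37 ± 0.0306 (SD, n = 3) in old MPP4, a level that 12.5% of ranked probe sets reached in young and 9.38% in old cells. The difference of 0.289 (SE 0.0242, 95% CI 0.232 to 0.345) had the largest moderated t-statistic of all 19155 genes, yet its adjusted p of 0.0585 missed the threshold of 0.05. No gene passed that threshold in this comparison (0% of all genes), so the call cannot be made for Nfatc3 either, whereas 9.77% of all genes had an unadjusted p under 0.05. The 2 groups did not overlap for 7.29% of all genes, and 3.28% of all genes were higher in old MPP4 without overlap, as Nfatc3 was. The call depended on the setting. With array weights the difference was 0.265 at an adjusted p of 0.0242, and without young MPP4 replicate 2 it was 0.281 at an adjusted p of 0.0423. Array weights brought 304 of all 19155 genes past the threshold, and leaving out that replicate brought 10 higher and 5 lower. Over all alternatives the adjusted p ran from 0.0242 to 0.558. With a variance trend and robust estimation the SE was 0.0640, and the adjusted p was 0.379. Among the arrays of the set that held all old arrays, where 2 young MPP4 arrays remained, the difference was 0.316. In bulk samples such as these, more cells with a transcript and more transcript per cell cannot be told apart.

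**Figure D1:**
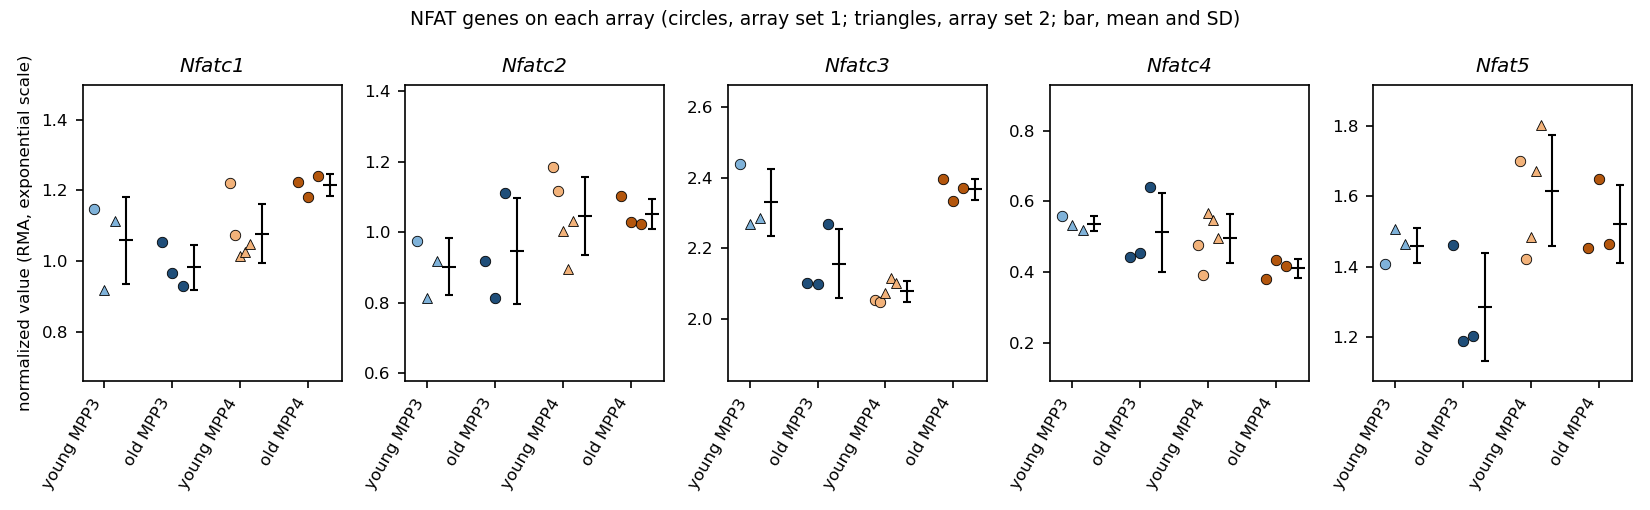
Normalized value (minus the natural logarithm of the fraction of ranked probe sets that reach it) of the 5 NFAT genes on each of the 14 arrays, with a panel for each gene; points are arrays circles and triangles mark the 2 array sets, and the bar beside each group gives its mean and SD. Old MPP4 arrays lie above all young MPP4 arrays for Nfatc3 (at 2.33 or more against 2.12 or less), while young and old MPP4 overlap for each of the other genes.

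In myeloid-biased MPP3 the mean of Nfatc3 differed with age in the other direction. Its values were 2.44, 2.27 and 2.28 in young MPP3 and 2.10, 2.10 and 2.27 in old MPP3. The highest old array met the lowest young array, so that the groups overlapped by a narrow margin, whereas 14.2% of all genes had no overlap between these 6 arrays. The means were 2.33 ± 0.0950 (SD, n = 3) and 2.16 ± 0.0972 (SD, n = 3), a level reached by 9.73% and 11.6% of probe sets. The difference of -0.174 (SE 0.0715) had an adjusted p of 0.615 and did not pass, as did none of the other genes (0%, with 8.19% at an unadjusted p under 0.05). It was -0.120 without young MPP3 replicate 1, -0.145 without old MPP3 replicate 2 and -0.230 without old MPP3 replicate 3. Between old populations, leaving out old MPP3 replicate 2 gave 0.181 in place of 0.210, and the interaction became 0.433. The difference between the MPP4 and the MPP3 age differences was 0.463 (SE 0.0695, 95% CI 0.310 to 0.615), the second largest moderated t-statistic of all genes, with an adjusted p of 0.200. It passed with array weights (0.438, adjusted p = 0.00604) and without old MPP3 replicate 3 (0.519, adjusted p = 0.0157), and over all alternatives its adjusted p ran up to 0.729. Array weights brought 574 of all 19155 genes past the threshold, and leaving out old MPP3 replicate 3 brought 2 higher and 8 lower. In the reported setting no gene passed in this test either (0% of all genes, with 6.26% at an unadjusted p under 0.05). A difference in the response to age between the populations was therefore not established for Nfatc3.

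Between populations the order of the Nfatc3 means differed by age. In young mice every MPP4 array was below every MPP3 array, and the difference was -0.253 (SE 0.0426, adjusted p = 0.0992). In old mice every MPP4 array was above every MPP3 array, with a difference of 0.210 (SE 0.0542, adjusted p = 0.361). Neither passed. Groups did not overlap for 7.47% of all genes in the young comparison and 16.6% in the old, and 0.131% and 0% of all genes passed the adjusted threshold. The young difference passed without young MPP3 replicate 1 (-0.198, adjusted p = 0.0459) and with array weights (-0.193, adjusted p = 0.0128), and had an adjusted p of up to 0.457 under the other alternatives. Array weights brought 1808 of all 19155 genes past the threshold, and leaving out young MPP3 replicate 1 brought 43 higher and 65 lower. Ordered by mean, the groups ran from young MPP4 through old MPP3 and young MPP3 to old MPP4. Old MPP3 (2.10 to 2.27) overlapped with young MPP4 (2.05 to 2.12) and narrowly with young MPP3, and young MPP3 (2.27 to 2.44) overlapped with old MPP4 (2.33 to 2.39). The opposite ends of the order, young MPP4 and old MPP4, did not overlap.

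**Figure D2:**
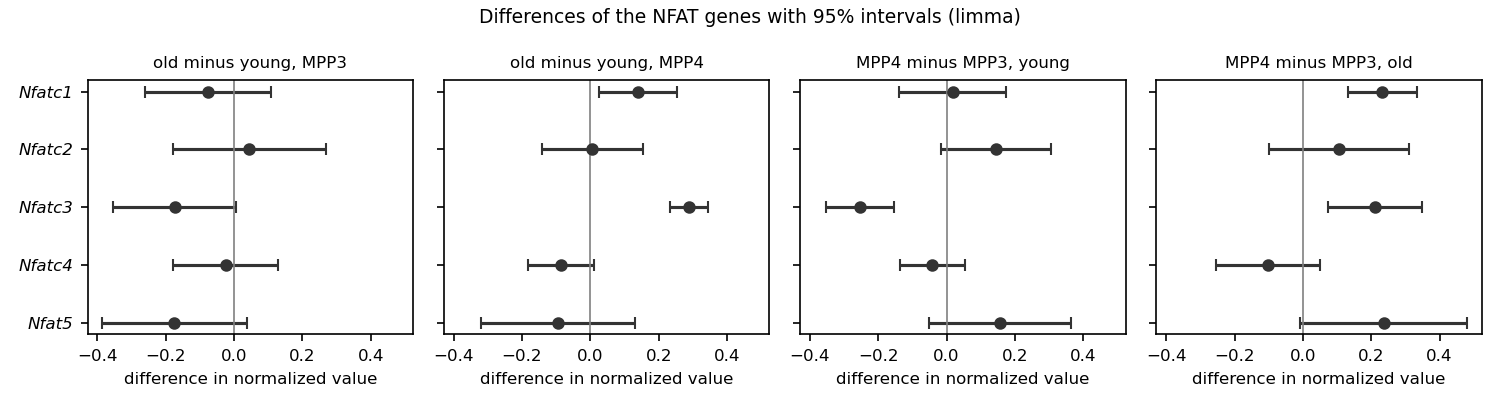
Difference in normalized value of each NFAT gene in the 4 pairwise comparisons, with 95% confidence intervals from limma; the vertical line marks no difference. The intervals of Nfatc3 lie above 0 for old against young MPP4 (0.232 to 0.345) and below 0 for young MPP4 against young MPP3. For old MPP4 against old MPP3 those of Nfatc3 (0.0729 to 0.347) and Nfatc1 (0.132 to 0.334) lie above 0. So does that of Nfatc1 for old against young MPP4 (0.0245 to 0.252). None of the 20 differences passed the adjusted threshold.

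The spread of Nfatc3 among replicates was small in MPP4. Its SD of 0.0297 in young MPP4 was above that of 18.0% of genes, and its SD of 0.0306 in old MPP4 above that of 37.0%. The corresponding SDs in young and old MPP3 were above those of 61.5% and 58.7% of genes. The arrays of MPP4 thus lay closer together for Nfatc3 than those of MPP3, although the difference in spread was not tested.

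Nfatc1 is the member that marks osteoclast development and is also found in lymphocytes and stem cells of the skin. It had values of 1.22, 1.07, 1.01, 1.03 and 1.05 in young MPP4 and of 1.22, 1.18 and 1.24 in old MPP4. Replicate 1 of young MPP4 lay within the old range and the other 4 arrays lay below it. The difference was 0.138 (SE 0.0487, adjusted p = 0.452), and it was 0.0676 within the set that held all old arrays. With array weights, where 304 of all 19155 genes passed, it was 0.167 at an adjusted p of 0.0486. Under the other alternatives the adjusted p was up to 0.780. In MPP3, Nfatc1 had 1.15, 0.919 and 1.11 in young and 1.05, 0.966 and 0.929 in old cells. These ranges overlapped, and the difference was -0.0768 (SE 0.0730, adjusted p = 0.811). It was -0.147 without young MPP3 replicate 2, -0.0326 without young MPP3 replicate 1, -0.0682 without old MPP3 replicate 2 and -0.00991 with array weights. Within the set that held all old arrays it was -0.165, where young MPP3 replicate 1 was the only young array. In old mice, all 3 MPP4 arrays were above all 3 MPP3 arrays, by a mean of 0.233 (SE 0.0398, adjusted p = 0.242), or 0.224 without old MPP3 replicate 2. In young mice the populations overlapped, with a difference of 0.0176 (SE 0.0670, adjusted p = 0.972), and the interaction was 0.215 (SE 0.0872, adjusted p = 0.781).

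Nfatc2, long studied in T cells as NFAT1, showed little separation by age. Its values were 1.18, 1.12, 1.00, 0.895 and 1.03 in young MPP4 and 1.10, 1.03 and 1.02 in old MPP4. The old arrays lay within the young range, and the difference of 0.00584 (SE 0.0633, adjusted p = 0.987) changed sign under several alternatives. In MPP3, the values were 0.974, 0.815 and 0.917 in young and 0.918, 0.813 and 1.11 in old cells, of which the single array at 1.11 was old MPP3 replicate 3. The difference was 0.0449 (SE 0.0885, adjusted p = 0.918), and without that array its sign turned, to -0.0367, whereas without old MPP3 replicate 2 it was 0.112. The mean was higher in MPP4 than in MPP3 by 0.143 (SE 0.0688, adjusted p = 0.519) in young and by 0.104 (SE 0.0809, adjusted p = 0.717) in old mice, with overlapping ranges in both. Without old MPP3 replicate 2 the old difference was 0.0371. The interaction was -0.0391 (SE 0.110, adjusted p = 0.988).

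Nfatc4, known chiefly from heart and nerve cells, was dim throughout. All of its 14 values, from 0.381 to 0.642, were below the median of every array, which started at 0.662. In young MPP4 they were 0.477, 0.391, 0.567, 0.546 and 0.497, and in old MPP4 0.381, 0.433 and 0.418. The old arrays were low in this range, with 1 young array among them, and the difference was -0.0852 (SE 0.0409, adjusted p = 0.541), or -0.0234 within the set that held all old arrays. In MPP3 they were 0.560, 0.533 and 0.520 in young and 0.443, 0.454 and 0.642 in old cells. Old MPP3 replicate 3 stood above the 2 other old arrays, and the difference of -0.0245 (SE 0.0610, adjusted p = 0.940) became -0.0889 without it and 0.00504 without old MPP3 replicate 2. In old mice all MPP4 arrays were below all MPP3 arrays, with a difference of -0.102 (SE 0.0604, adjusted p = 0.639) that was -0.0378 without old MPP3 replicate 3 and -0.132 without old MPP3 replicate 2. The young comparison (-0.0415, SE 0.0411, adjusted p = 0.802) and the interaction (-0.0607, SE 0.0724, adjusted p = 0.948) did not separate the groups.

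Nfat5, the osmotic-stress factor, varied most among replicates, with a pooled SD of 0.133 within groups against a median of 0.0897 over all genes. Its values were 1.70, 1.42, 1.48, 1.67 and 1.80 in young MPP4 and 1.45, 1.65 and 1.46 in old MPP4. The 3 young arrays with Xist above 1, replicates 1, 4 and 5, were the 3 highest, whereas in MPP3 the one array with Xist above 1 was the lowest young array. The age difference of -0.0938 (SE 0.0961, adjusted p = 0.783) became 0.0694 without the Xist-positive arrays. The part of female cells in this difference was not tested. In MPP3, the values were 1.41, 1.51 and 1.46 in young and 1.46, 1.19 and 1.20 in old cells. Of the old arrays, 2 lay below the young range and 1 within it, and the difference was -0.174 (SE 0.0836, adjusted p = 0.656). It was -0.263 without old MPP3 replicate 1, -0.126 without old MPP3 replicate 2 and -0.0801 with array weights. The mean was higher in MPP4 than in MPP3, by 0.156 (SE 0.0888, adjusted p = 0.595) in young and by 0.237 (SE 0.0965, adjusted p = 0.523) in old mice. The young difference was -0.0329 without the Xist-positive arrays, and the old one 0.189 without old MPP3 replicate 2. The interaction was 0.0805 (SE 0.138, adjusted p = 0.971).

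Counted over the family, 0 of 5 members passed the adjusted threshold in each of the 5 comparisons. At an unadjusted p under 0.05 there were 2 in the MPP4 age comparison and 2 in the interaction (Nfatc1 and Nfatc3, higher in both), 0 in MPP3, 1 in the young population comparison (Nfatc3, lower in MPP4) and 2 in the old one (Nfatc1 and Nfatc3, higher in MPP4). Of all genes, 9.77%, 6.26%, 8.19%, 11% and 9.83% had such a p in these comparisons, in the same order. Across the 14 arrays the members varied in different ways. The highest Pearson r between members was 0.526, for Nfatc1 and Nfatc2, and the lowest was -0.580, for Nfatc1 and Nfatc4. After group means were removed, the highest was 0.652, for Nfatc3 and Nfatc4, which had r = 0.00889 before. The family median difference was 0.00584 in MPP4 and -0.0768 in MPP3, beside medians of -0.000171 and 0.000183 over all genes.

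Genes whose levels most resembled each member were sought among 9203 annotated genes at or above the median level, over the 14 arrays, which share groups and array sets. For Nfatc3 these were Poc1b (Pearson r = 0.788), a centriole gene, Calm2 (r = 0.777), 1 of the calmodulin genes, and Esyt2 (r = 0.767), which tethers the endoplasmic reticulum to the plasma membrane. After group means were removed, r was 0.295 for Poc1b and 0.191 for Esyt2, whereas for Calm2 it was still 0.649. For Nfatc1 they were Slc27a1 (r = 0.868), Lrrc58 (r = 0.827) and Slc25a3 (r = 0.826), and for Nfatc2 Snn (r = 0.932), Stau1 (r = 0.910) and Eef2k (r = 0.898). For Nfatc4 they were Apln (r = 0.963), Cpne6 (r = 0.929) and the calcium pump gene Atp2b2 (r = 0.904), and for Nfat5 Srxn1 (r = 0.886), Zbtb10 (r = 0.886) and Kdm2a (r = 0.881). They were the highest of many correlations and are descriptions only.

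The upstream machinery, the partners and the targets of the family were described from 7 lists of 87 genes, of which 83 were measured. Of these 83 genes, 0 passed the adjusted threshold for age in MPP3, 0 for age in MPP4, 1 between populations in young mice, 0 in old mice and 0 in the interaction, beside 0%, 0%, 0.131%, 0% and 0% of all genes. Without regard to the test, mean differences with age were positive for 27 and negative for 56 genes in MPP3, and for 41 and 42 in MPP4. Over all genes the mean difference was negative for 49.9% in MPP3 and 50.2% in MPP4. The list medians were -0.0270 and -0.00101. Young and old arrays did not overlap for 3 genes higher and 10 lower in old MPP3, beside 14.2% of all genes. In old MPP4 it was 6 higher and 4 lower, beside 7.29%. Between populations it was 4 higher and 4 lower in young MPP4 (7.47% of all genes), and 14 higher and 5 lower in old MPP4 (16.6%). Genes named below as without overlap are to be read beside these shares.

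Of the 5 calcineurin subunit genes, Ppp3cc, the catalytic gamma subunit, had the largest moderated statistic for age in both populations. It had 1.02, 1.09 and 1.00 in young and 0.981, 0.888 and 0.895 in old MPP3. It had 1.06, 1.03, 1.10, 1.10 and 1.09 in young and 1.27, 1.16 and 1.11 in old MPP4. All old arrays were lower than young ones in MPP3 and higher in MPP4. The differences were -0.117 (SE 0.0417, adjusted p = 0.576) and 0.102 (SE 0.0386, adjusted p = 0.477), and the interaction was 0.219 (SE 0.0575, adjusted p = 0.624). In old mice Ppp3cc was higher in MPP4 by 0.256 (SE 0.0530, adjusted p = 0.311). Ppp3ca, the alpha subunit, differed with age by 0.206 (SE 0.130, adjusted p = 0.715) in MPP3 and by -0.109 (SE 0.0515, adjusted p = 0.536) in MPP4, the opposite signs. Its old MPP3 values were 2.09, 2.58 and 2.25, the highest of them on old MPP3 replicate 2, against 2.04 to 2.18 in young MPP3.

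Among the 9 inhibitors and drug-binding partners of calcineurin, Rcan1, which binds and restrains calcineurin and is itself an NFAT target, had the largest moderated statistic for age in MPP3. Its values were 1.11, 0.998 and 1.07 in young and 0.609, 0.590 and 0.965 in old MPP3. All old arrays were below all young ones, and the mean difference was -0.336 (SE 0.111, adjusted p = 0.559). In MPP4 the difference was -0.0752 (SE 0.0467, adjusted p = 0.637). Fkbp1a, the FK506-binding protein, differed by -0.257 (SE 0.118, adjusted p = 0.647) in MPP3.

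In the calcium entry and release list, all 11 measured genes had lower means in old than in young MPP3, with a median difference of -0.0702, and none passed. In MPP4, 4 were higher and 7 lower. Itpr2, an inositol trisphosphate receptor that releases stored calcium, differed by -0.215 (SE 0.0774, adjusted p = 0.576) in MPP3 and by 0.0728 (SE 0.0640, adjusted p = 0.735) in MPP4. Calm2 differed by -0.205 (SE 0.129, adjusted p = 0.711) and 0.204 (SE 0.0792, adjusted p = 0.486). The signs of both genes were those of Nfatc3, but 7 of the 11 genes had lower old means in both populations. Both genes were named for the size of their statistics, so the match carries no independent weight. Calm2 was also among the genes most correlated with Nfatc3 on these same arrays.

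The list of NFAT kinases and nuclear transport held 15 genes, scaffold proteins among them. Dyrk1b, of the kinase family that primes NFAT for export, had 1.29, 1.15 and 1.14 in young and 0.949, 0.989 and 1.04 in old MPP3. Xpo1, the nuclear export receptor, had 2.77, 2.75 and 2.65 in young and 2.89, 2.86 and 2.87 in old MPP3. Neither gene's groups overlapped, with Dyrk1b low and Xpo1 high in old cells, beside 14.2% of all genes without overlap. Their differences were -0.201 (SE 0.0525, adjusted p = 0.507) and 0.147 (SE 0.0395, adjusted p = 0.511). Homer2, a scaffold protein that competes with calcineurin for NFAT, differed by -0.167 (SE 0.0408, adjusted p = 0.350) in MPP4.

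Among the 16 transcription partners, Gata3, a zinc-finger factor of T cell development, was the one gene of all lists that passed the threshold. It had 0.879, 0.928 and 0.941 in young MPP3 and 0.589, 0.595, 0.434, 0.427 and 0.534 in young MPP4. It was lower on every young MPP4 array than on any young MPP3 array, with a difference of -0.400 (SE 0.0484, adjusted p = 0.0450). All of its young MPP4 values were dim, below the median of every array, which started at 0.662. The call was lost with a replicate block (adjusted p = 0.450), in 1 fit of all groups (0.170), without the Xist-positive arrays (0.276), without young MPP3 replicate 2 (0.179) or 3 (0.215) and without young MPP4 replicate 2 (0.0553), 3 (0.106), 4 (0.103) or 5 (0.131). The difference itself stayed between -0.420 and -0.376 in these settings. In old MPP3 the 3 arrays spread from 0.658 to 1.27. In MPP4, Gata3 differed with age by 0.299 (SE 0.0702, adjusted p = 0.323), with old arrays at 0.799, 0.961 and 0.684, all above the young ones. Mef2a, a MADS-box factor that cooperates with NFAT in muscle, had 2.07, 2.11, 2.10, 2.03 and 2.01 in young and 2.31, 2.25 and 2.22 in old MPP4. Its groups did not overlap, and the difference was 0.194 (SE 0.0318, adjusted p = 0.218). The coactivator gene Ep300 differed by 0.342 (SE 0.0982, adjusted p = 0.392), with 2.52, 2.39 and 2.41 in old MPP4. Its young MPP4 values were 2.37 and 2.14 in the set that held all old arrays, and 1.92, 2.03 and 2.03 in the other set. Mef2c, a factor of lymphoid fate in progenitors, was higher in MPP4 than in MPP3 by 0.402 (SE 0.131, adjusted p = 0.325) in young and 0.590 (SE 0.0964, adjusted p = 0.239) in old mice.

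**Figure D3:**
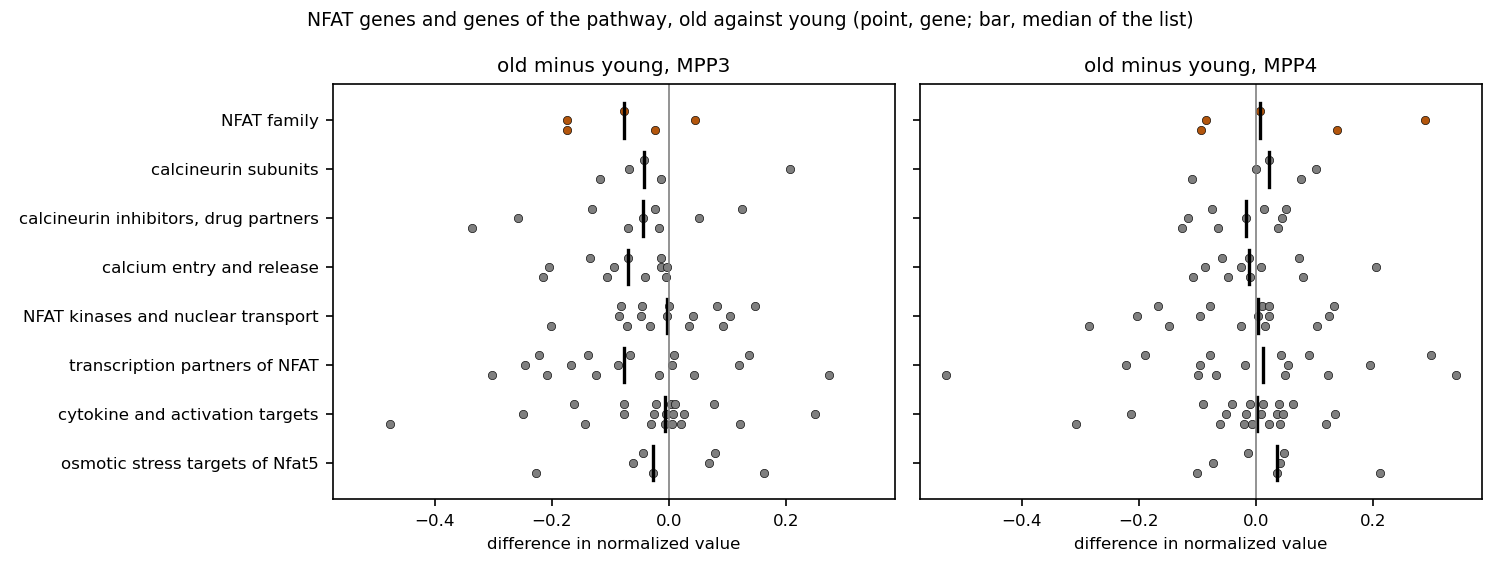
Old minus young difference in normalized value of the NFAT genes and of the 83 measured pathway genes, grouped by list, in MPP3 and in MPP4; each point is 1 gene and each vertical bar the median of its list. All 11 calcium entry and release genes lie below 0 in MPP3, and no gene of any list passed the adjusted threshold for age.

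Of the 20 cytokine and activation targets, Tnf had the largest moderated statistic for age in MPP3. It had 0.685, 0.762 and 0.798 in young and 1.01, 0.904 and 1.08 in old MPP3. Its old arrays were all above the young ones, and the difference was 0.248 (SE 0.0570, adjusted p = 0.493). Egr3 and Nr4a1, which are induced within minutes of activation, went the other way in MPP3, by -0.249 (SE 0.0919, adjusted p = 0.585) and -0.476 (SE 0.181, adjusted p = 0.594). For Nr4a1 old MPP3 replicate 2 was the lowest array, at 0.903 against 1.55 and 1.37 in replicates 1 and 3 of old MPP3. Tnf was higher in MPP4 than in MPP3 by 0.446 (SE 0.0850, adjusted p = 0.133) in young and 0.331 (SE 0.0852, adjusted p = 0.360) in old mice, and no target passed in any comparison. In MPP4, the age differences of this list were positive for 10 genes and negative for 10, with a median of 0.000858. Of the 7 measured osmotic targets of Nfat5, Slc6a6, the taurine transporter gene, was higher in old MPP4 than in old MPP3 by 0.374 (SE 0.0798, adjusted p = 0.322). With age it differed by -0.227 (SE 0.0793, adjusted p = 0.576) in MPP3 and 0.211 (SE 0.156, adjusted p = 0.688) in MPP4.

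Markers of other cell types were read from the same arrays. The summed value of 12 mature T and NK cell genes lay between 6.38 and 6.83 in young MPP4 and between 6.30 and 6.39 in old MPP4, and none of these genes was at 0. The highest member was Lat, at a mean of 1.99 in young and 1.52 in old MPP4. The summed ranges of the ages overlapped narrowly. Of the 12 genes, 6 had higher and 6 had lower means in old than in young MPP4, beside 49.8% of all genes with a higher mean. Their median difference was 0.00329. The part of such cells in the Nfatc3 values was not tested. The 10 neutrophil and monocyte genes summed to 3.92 to 4.96 in young and 3.90 to 5.22 in old MPP4, so the ages overlapped there as well. The 7 osteoclast genes, read because Nfatc1 is known from those cells, summed to 2.49 to 3.29 in young and 2.57 to 2.69 in old MPP4. The 6 mast cell and basophil genes summed to 1.90 to 2.92 in young and 2.79 to 3.18 in old MPP4. Here only young replicate 2 reached the old range, and the other 4 young arrays lay at 2.23 or less. Of the 6 genes, 5 had higher means in old cells, beside 49.8% of all genes. An unadjusted p under 0.05 was found for 2 of them, beside 9.77% of all genes, and none passed the adjusted threshold (0% of all genes). The part of such cells in the MPP4 values was not tested. In MPP3 the neutrophil and monocyte list summed to 5.45 to 7.63 in young and 8.27 to 12.1 in old cells, without overlap, and the mast cell and basophil list summed to 3.66 to 5.39 in young and to 9.65, 8.31 and 4.46 in old replicates 1, 2 and 3. Old MPP3 replicate 3, the highest old MPP3 array for Nfatc2, Nfatc3 and Nfatc4, was thus the lowest for the mast cell list and, at 5.93 against 3.55 and 3.43, the highest for 7 B cell genes. The part of these cells in the MPP3 values was not tested.

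**Figure D4:**
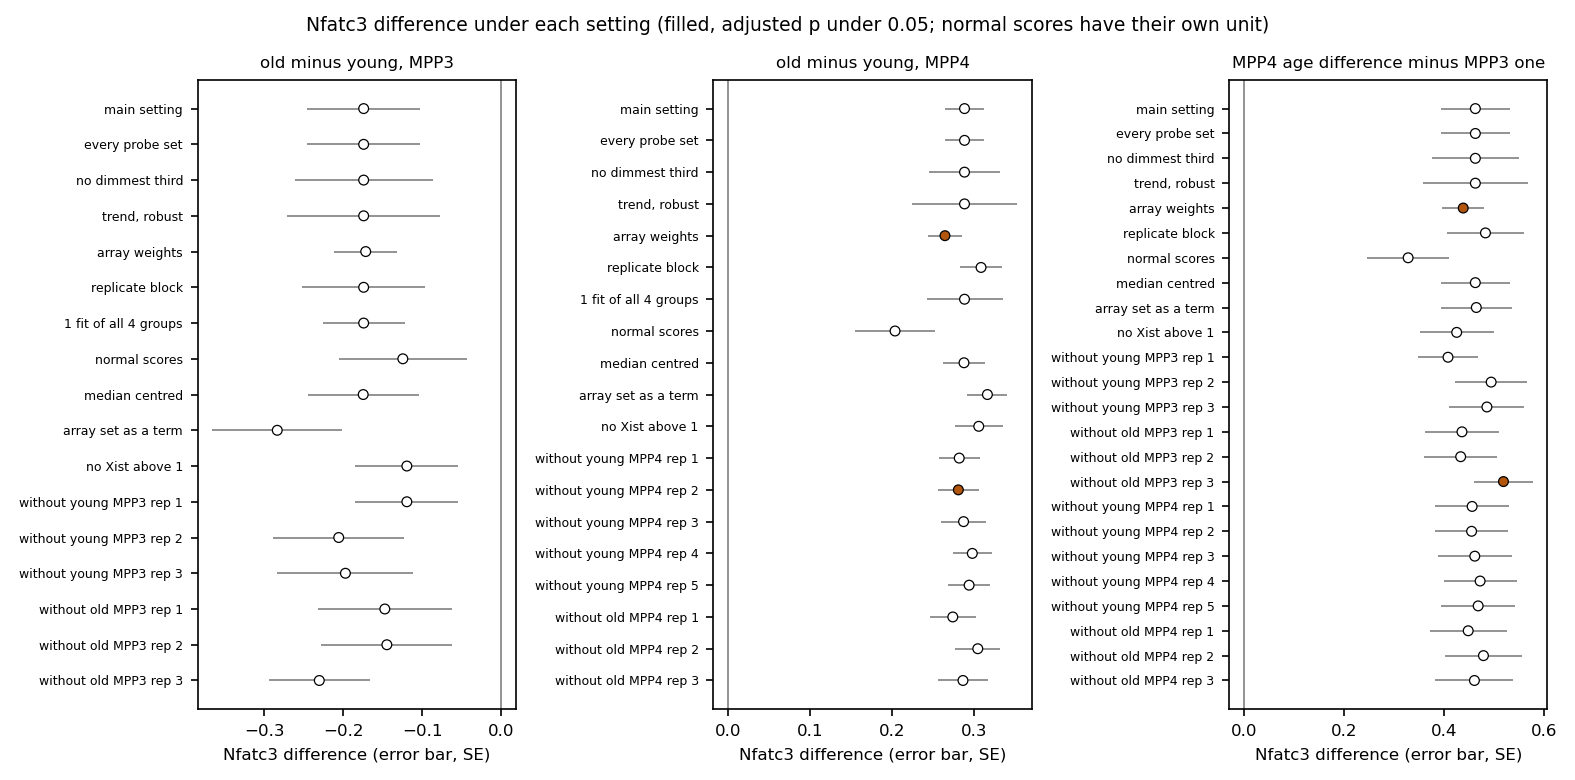
Old minus young difference in normalized value of Nfatc3 in MPP3 and in MPP4, and the difference between the 2, under the reported setting, under each alternative and with each array left out; bars are standard errors and filled points had an adjusted p under 0.05. In MPP4 the difference lies between 0.204 and 0.316 and in MPP3 between -0.283 and -0.120, where normal scores have a unit of their own. The MPP3 value of -0.283 is from array set as a term and rests on young MPP3 replicate 1 as the only young array.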

How the data were processed

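Total RNA of 20000 double-sorted cells per sample was amplified and hybridised to Affymetrix Mouse Gene ST 1.0 arrays. The deposited values are a score: the authors normalised the arrays by RMA in R 2.15.1 and mapped the ranks to an exponential distribution of rate 1. Depth has no meaning for arrays, and the number of arrays limits the precision.

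Probe sets were named through the platform annotation. Of 22115 probe sets, 19980 were annotated and 744 of these named several genes and were left out, and the probe set with the highest mean over all arrays stood for a gene, which left 19155 genes. Groups came from the sample labels. The members and the gene lists were chosen with earlier results of these data known. Groups were compared with limma 3.58.1 (lmFit and eBayes, two-sided, Benjamini-Hochberg over 19155 genes, threshold 0.05) in R 4.3.3, on the arrays of the 2 groups compared, and the interaction was fitted on all 14. Summaries were made in Python 3.11.15. The procedure was tested on simulated data, with independent normal noise, the same SD in all groups for a gene and no array sets. Differences of up to 1 were added to other genes as well. There an added difference of 0.3 passed the threshold for 54% of 50 genes for age in MPP4 and for 38% for age in MPP3. Between old populations it passed for 34%, so differences of this size can be missed. The simulation lacked the structure of the real arrays, so its rates need not hold for them. Named genes were the 5 members, up to 3 genes per list and comparison with the largest moderated statistic, genes past the threshold and the 3 most correlated genes per member, beside sorting, sex and marker genes. Alternatives covered probe sets, dim genes, variance model, array weights, replicate block, a joint fit, scale, centring, array set, Xist and each array left out.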

Additional observations from a re-analysis of the deposited data

Results flagged for a closer look

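Among the 53 genes named from the lists or the family, 6 had an outlying array in young MPP4, the one group of 5 arrays, where the gap of the extreme array to its neighbour was large for the range of the group. Chance flags about 1 in 20 such groups. The outlying array was replicate 1 for 5 of these genes: the immediate-early gene Nr4a1 at 2.85 (the others at 1.43 to 1.73), Jund at 1.90, the phospholipase gene Plcg2 at 2.04, Slc6a6 at 2.41 and Hspa4l, the one low value, at 1.41. It was replicate 5 for Slc5a3, at 0.771. No family member had an outlying array. For Ppp3cc, every old array was below the young ones in MPP3 and above them in MPP4, and the difference between the 2 age differences, 0.219, was tested and did not pass (adjusted p = 0.624).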

How the results depend on the processing

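Over the whole table, the count of genes past the threshold for age in MPP3 was 0 (658 genes higher and 910 lower at an unadjusted p under 0.05), against 9 in 1 fit of all groups and 1 with array set as a term. For age in MPP4 it was 0, against 304 with array weights, 1 in the joint fit and 0 to 15 with an array left out. Between young populations it was 25, against 51 with every probe set, 59 without the dimmest genes, 48 with a variance trend, 1808 with array weights, 51 with normal scores, 271 with array set as a term, 0 without the Xist-positive arrays and 8 to 108 with an array left out. Between old populations it was 0, against 1 without the dimmest genes, 27 in the joint fit, 2 with normal scores and 0 to 3 with an array left out. For the interaction it was 0, against 2 with a variance trend, 574 with array weights and 0 to 10 with an array left out. Of the pathway genes, 3 passed for age in MPP4 and 5 in the interaction with array weights. Between young populations, where 1 passed, 11 did with array weights, 2 with normal scores, 2 with array set as a term, 0 in the joint fit, 0 without the Xist-positive arrays and 0 to 2 with an array left out. The cause of these shifts was not tested.

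Array set could not be fitted for the old populations, whose arrays were all in one set. The replicate block gave 0 genes past the threshold and 0 pathway genes between young populations. Same-numbered arrays deviated from their group means with correlations between -0.207 and 0.447, and in no comparison were all above 0.1. The highest was that of young MPP3 replicate 1 with young MPP4 replicate 1. Deviations from a group mean sum to 0, so these correlations cannot decide whether some numbers share animals. The samples were compared without pairing in the reported setting. With the block, Nfatc3 differed by 0.309 in MPP4 (adjusted p = 0.558), -0.174 in MPP3 (0.731) and 0.483 in the interaction (0.677).

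Nfatc3 kept its sign in all alternatives and with any array left out (0.274 to 0.305 in MPP4, -0.230 to -0.120 in MPP3, 0.408 to 0.519 for the interaction), whereas its calls depended on 1 array or on array weights. Signs turned only for differences far from the threshold. For Nfatc2, the MPP3 age difference was -0.0267 with array set as a term, a value that rests on young MPP3 replicate 1 as the only young array. It was -0.0367 to 0.112 with an array left out. Its MPP4 age difference was -0.0493 with the replicate block, -0.0984 with array set, -0.00758 without Xist-positive arrays and -0.0318 to 0.0405 with an array left out, and its interaction was 0.0302 with array weights and -0.106 to 0.0425 with an array left out. For Nfatc4, the MPP3 age difference was -0.0889 to 0.0105 and the interaction -0.0956 to 0.00373 with an array left out. For Nfatc1, the young population difference was -0.00135 with array weights and -0.0528 to 0.0618 with an array left out. For Nfat5, without Xist-positive arrays the MPP4 age difference was 0.0694 and the young population difference -0.0329, and its interaction was -0.0258 with array weights.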
